A study of Mus musculus with 9 samples.

Results

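Arginase 2 was the gene of arginine breakdown that differed between injured and uninjured blood, whereas arginase 1 and the inducible nitric oxide synthase stayed at a low signal in all groups. The data are on 5 genes of arginine metabolism among the 18194 genes of the array: Arg1, Arg2, Nos2, Odc1 and Ass1. They were taken by name, and each was represented by the brightest, on average, of its probe sets that carry exactly 1 gene symbol. The genes were selected on the contrast of both arginases and Nos2 over these groups, with their log2 values already known, so that their own differences between the groups are given as a description, without a test.

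Blood was taken from C57BL/6 mice aged 8 to 9 weeks, 3 animals per group and 1 array per animal. PT+HS mice had a polytrauma, that is blunt trauma to the chest, a brain injury and a broken femur with damage to the surrounding tissue. They were bled from 1 h after the trauma to a mean arterial pressure of 30 mmHg, a pressure kept up for 60 min. Electrolyte solution at 4 times the blood taken followed within 30 min, together with norepinephrine as needed. PT mice had the polytrauma alone. Both injured groups received buprenorphine, were kept under sevoflurane and were sampled 4 h after the trauma. Ctrl mice were unmanipulated and gave blood once the same anesthesia was induced. Trauma, duration of anesthesia, analgesic and instrumentation therefore cannot be told apart in a difference from Ctrl. In PT+HS against PT, blood loss, electrolyte solution and norepinephrine cannot be told apart, and in PT+HS against Ctrl they come on top. Whole blood went into RNA-stabilizing tubes. In such bulk RNA, more cells of a type and more RNA per cell cannot be told apart.

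Arginine stands at a branch point of leukocyte metabolism. The arginases split it into urea and ornithine, with Arg1 in the cytosol and Arg2 in mitochondria, while Nos2 turns it into citrulline and nitric oxide. Ornithine is the substrate of Odc1, which makes putrescine, the first polyamine, and Ass1 together with Asl rebuilds arginine from citrulline. In mice Arg1 is a textbook gene of alternatively activated macrophages and of suppressive myeloid cells, and Nos2 one of classically activated macrophages. Arginine use by myeloid cells is known to limit T-cell function.

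The deposited values are log2 expression values made by robust multiarray average, in which a difference of 1 is a doubling. The median of an array was 3.63 to 3.76. PT replicate 2 stood apart, with correlations of 0.912 to 0.949 to the other arrays over all probe sets, while no pair among the remaining 8 arrays fell under 0.961. The leukocyte genes Ptprc and Coro1a, defining markers of the labelled tissue, had a mean value of 9.66 to 11.13 on the 9 arrays, with the lowest in PT replicate 2. Batches and scan dates were not named in the labels. The arrays of a group are separate animals, and 3 animals per group limit the precision.

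Arg2, the mitochondrial arginase (Entrez gene 11847, chromosome 12, 79130788 to 79156301, GRCm38.p6), was far higher in both injured groups than in Ctrl. Its log2 values were 8.30, 7.48 and 8.70 in PT+HS replicates 1 to 3, 8.63, 6.41 and 8.26 in PT replicates 1 to 3, and 4.86, 4.72 and 4.47 in Ctrl replicates 1 to 3. Every injured animal lay above every Ctrl animal, and the lowest injured value was that of PT replicate 2. The group means were 8.16 ± 0.62 in PT+HS, 7.77 ± 1.19 in PT and 4.68 ± 0.20 in Ctrl (SD, n = 3 each). PT+HS exceeded Ctrl by 3.48 on the log2 scale, that is 11.1-fold, and PT exceeded Ctrl by 3.08, that is 8.47-fold (standard error 0.52). Among all 18194 genes this was the difference of rank 4 from the top in PT+HS and of rank 5 in PT. In the order of the means PT+HS came before PT, but these neighbours overlapped, and their difference of 0.39 was smaller than its standard error of 0.52. Without PT replicate 2 it was -0.28, and with a further probe set of Arg2 and all animals it was -0.19, so that the order of the injured groups was not settled.

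That further probe set of Arg2 gave lower values with smaller differences. It read 3.90, 3.18 and 4.05 in PT+HS, 4.64, 3.28 and 3.76 in PT and 3.23, 2.88 and 2.58 in Ctrl, in the order of the replicates. PT lay wholly above Ctrl, whereas PT+HS replicate 2 lay just below Ctrl replicate 1. Against Ctrl this was a difference of 0.81 for PT+HS and of 0.999 for PT. The sign was thus shared by both probe sets of Arg2 and the size was not.

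**Figure D1:**
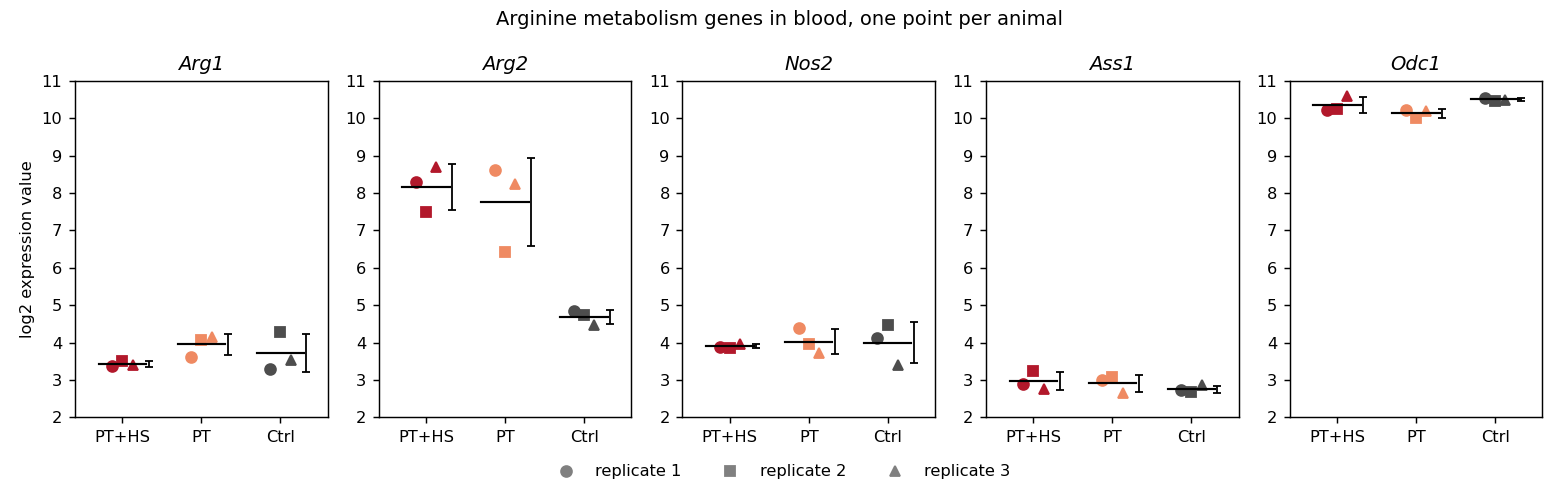
Log2 expression values of the 5 genes (vertical axis, the same range in each panel) in PT+HS, PT and Ctrl blood, with 1 point per animal, the marker shape giving the replicate number, a horizontal line at the group mean and a bar of 1 SD beside it. Arg2 is at 6.41 or more in every injured animal and at 4.86 or less in every Ctrl animal, while in each of the other 4 genes the group means lie within 0.52 of each other.

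Arg1, the cytosolic arginase of the liver urea cycle and of myeloid cells (Entrez gene 11846, chromosome 10, 24915207 to 24927470), did not share this pattern. Its log2 values were 3.37, 3.51 and 3.40 in PT+HS, 3.62, 4.08 and 4.15 in PT, and 3.30, 4.28 and 3.55 in Ctrl. The values of PT+HS lay below all those of PT and within the range of Ctrl, which spanned both injured groups. Against Ctrl the log2 difference was -0.28 for PT+HS and 0.24 for PT, about as large as its standard error of 0.26, while that of PT+HS against PT was -0.52. The means were 3.43 ± 0.076 in PT+HS, 3.95 ± 0.29 in PT and 3.71 ± 0.51 in Ctrl (SD, n = 3 each), an order in which PT and Ctrl, and Ctrl and PT+HS, overlapped. Averaged over the arrays it read 3.70, and the median gene read 4.29. The brightness of a probe set also depends on its sequence, so this says only that the signal was weak and sets no order between genes. Arg1 had no other probe set with a single symbol, so that no further reading of it was at hand.

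Arg1 and Ass1 are both abundant in liver, and liver genes were therefore read beside them. The 7 measured markers (Alb, Ttr, Apoa1, Apoa2, Apob, Fgb and Cyp2e1) had a mean log2 value of 4.17 to 4.54 in PT+HS, 4.10 to 4.47 in PT and 4.01 to 4.05 in Ctrl. For all 7 the difference from Ctrl was above 0 in PT+HS and in PT, with medians of 0.17 and 0.12. In PT+HS 1 of them was past the thresholds of the study's methods, beside 3.28% of all genes. These thresholds are a fold of at least 1.5 with an unadjusted p under 0.05. Alb, Apob, Fgb and Cyp2e1 were weakly measured, with means of 3.02 to 3.78 over the arrays, under the 4.29 of the median gene. The part of these transcripts in the values of Arg1 and Ass1 was not tested.

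Nos2, the enzyme that competes with the arginases for arginine (Entrez gene 18126, chromosome 11, 78920787 to 78960226), was weakly measured as well and showed no separation of the groups. Nos2 read 3.88, 3.86 and 3.97 in PT+HS, 4.40, 3.96 and 3.72 in PT, and 4.12, 4.47 and 3.41 in Ctrl. The PT+HS animals lay close together, inside the ranges of both other groups. The differences from Ctrl were -0.10 in PT+HS and 0.03 in PT, and PT+HS differed from PT by -0.12, with a standard error of 0.27 for each. The order of the group means, PT before Ctrl before PT+HS, therefore separated no neighbours beyond their spread (3.90 ± 0.060 in PT+HS, 4.03 ± 0.34 in PT and 4.00 ± 0.54 in Ctrl, SD, n = 3 each).

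With the probe sets used, the injury groups thus differed from Ctrl in Arg2 by over 3 on the log2 scale. In Arg1 and Nos2 they differed by 0.28 or less in either direction. The other probe set of Arg2 gave 0.81 for PT+HS and 0.999 for PT.

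Ass1, the first enzyme that rebuilds arginine from citrulline (Entrez gene 11898, chromosome 2, 31470270 to 31520670), was weakly measured by the probe set that carries its symbol alone. The probe set read 2.88, 3.23 and 2.77 in PT+HS, 3.01, 3.07 and 2.65 in PT, and 2.73, 2.67 and 2.86 in Ctrl. The means were 2.96 ± 0.24 in PT+HS, 2.91 ± 0.22 in PT and 2.75 ± 0.097 in Ctrl (SD, n = 3 each). The groups overlapped in all 3 comparisons, with differences from Ctrl of 0.21 in PT+HS and 0.16 in PT (standard error 0.19) and of 0.05 between PT+HS and PT. Another probe set is annotated to Ass1 together with a pseudogene and was left out, so that little can be said of Ass1 from the probe set used here.

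Odc1, the rate-limiting enzyme of polyamine synthesis (Entrez gene 18263, chromosome 12, 17544808 to 17551502), was strongly measured and differed little. It read 10.23, 10.25 and 10.60 in PT+HS, 10.22, 10.01 and 10.20 in PT, and 10.55, 10.47 and 10.50 in Ctrl. The 3 PT animals lay below all Ctrl animals and just below all PT+HS animals, while PT+HS and Ctrl overlapped. The means were 10.36 ± 0.21 in PT+HS, 10.14 ± 0.12 in PT and 10.51 ± 0.039 in Ctrl (SD, n = 3 each). The log2 difference against Ctrl was -0.15 for PT+HS and -0.37 for PT, and that of PT+HS against PT was 0.22 (standard error 0.16 for each). The share of all genes whose values did not overlap, in either direction, was 9.44% in PT against Ctrl and 7.17% in PT+HS against PT, and 13.2% in PT+HS against Ctrl. Of the 5 genes, Arg2 and Odc1 did not overlap in PT against Ctrl, Arg1 and Odc1 in PT+HS against PT, and Arg2 in PT+HS against Ctrl. The other probe sets of Odc1 gave -0.34 and -0.39 for PT against Ctrl, both with overlap, and 0.43 and 0.22 for PT+HS against PT.

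RefSeq promoter windows (GRCm38.p6, 250 bases before to 50 after the start) were read for 2 of the 5 genes, Ass1 and Odc1. They are shown because a window was at hand for these members, whereas there was none for Arg1, Arg2 and Nos2. The motifs searched on both strands were TTGCNNAA of C/EBP factors, TTC and GAA with 4 bases between them for STAT6, TTCNNNGAA of other STAT factors, the E-box CACGTG, and ACGTG of HIF, which is contained in the E-box. They occur in 10.8%, 7.0%, 8.3%, 7.2% and 19.6% of the 32851 promoter windows, in this order. The Ass1 window (chr2:31470020-31470319, plus strand) holds 1 E-box, in capitals, which begins 36 bases before the start. The Odc1 window (chr12:17544623-17544922, plus strand) holds none of these letters, and 78.0% of its bases are G or C. It was placed by a start other than the gene start of 17544808 given above.
Ass1: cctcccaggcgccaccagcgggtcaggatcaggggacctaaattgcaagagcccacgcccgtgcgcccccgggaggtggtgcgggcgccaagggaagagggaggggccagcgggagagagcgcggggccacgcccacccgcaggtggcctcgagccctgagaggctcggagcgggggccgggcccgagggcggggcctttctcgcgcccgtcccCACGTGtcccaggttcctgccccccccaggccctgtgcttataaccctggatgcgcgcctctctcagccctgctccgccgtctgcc
Odc1: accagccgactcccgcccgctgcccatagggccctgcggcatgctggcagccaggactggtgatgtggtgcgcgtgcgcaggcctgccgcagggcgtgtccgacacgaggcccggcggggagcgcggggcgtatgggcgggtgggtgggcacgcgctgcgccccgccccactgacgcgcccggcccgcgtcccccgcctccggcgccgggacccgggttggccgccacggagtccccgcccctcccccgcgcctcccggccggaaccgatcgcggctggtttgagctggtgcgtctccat

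The genes with the pattern most like that of Arg2 over the 9 arrays were Dmxl2, Ccr1 and Cd300lf. Likeness was measured as the root mean square gap between the log2 values of both genes after each gene's own mean was subtracted. The gap to Arg2 was 0.36 for Dmxl2, a protein of vesicle acidification, 0.41 for the chemokine receptor Ccr1 and 0.41 for Cd300lf, an immunoglobulin-like receptor of myeloid cells, against a median of 1.71 over the 18193 other genes. Dmxl2 had log2 values of 6.86, 5.37 and 7.14 in PT+HS, 6.58, 4.77 and 6.87 in PT and 3.62, 3.63 and 3.44 in Ctrl. As in Arg2, the replicates numbered 2 were lowest in both injured groups, which the choice by likeness over these arrays favours. For Nos2, which spanned only 1.06 over the arrays, the nearest genes were Irx2, Brwd3 and Mfsd13b, with gaps of 0.09, 0.12 and 0.13 against a median of 0.41. All 3 had differences between groups of at most 0.17 in size, which their choice by likeness to Nos2 favours. With a correlation over the 9 arrays as the measure, 2 of the 3 nearest genes stayed the same for Arg2 and 2 of 3 for Nos2.

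**Figure D2:**
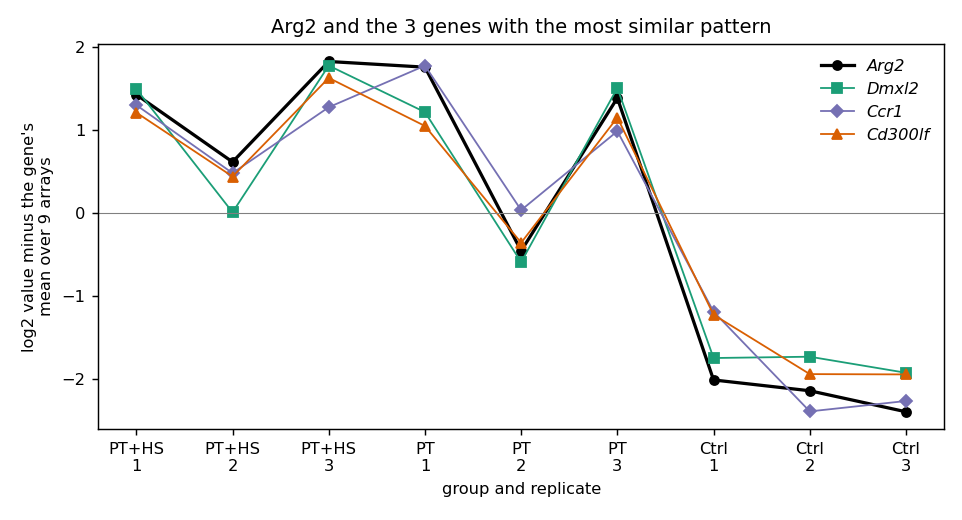
Log2 values of Arg2, Dmxl2, Ccr1 and Cd300lf, each minus its own mean over the 9 arrays (vertical axis), for the 3 animals of PT+HS, PT and Ctrl (horizontal axis, group and replicate number). All 4 genes are lowest in Ctrl, and the lowest injured animal in each is PT replicate 2, as in Arg2 with 6.41. The genes beside Arg2 were chosen for their likeness to it over these arrays.

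Neutrophil markers were higher in the injured groups as well, and the arrays low in Arg2 among the injured were also low in these markers. The mean log2 value of 11 measured markers (S100a8, S100a9, Mmp8, Mmp9, Cxcr2, Csf3r, Camp, Ltf, Lcn2, Ngp and Cd177) was 9.50, 8.16 and 9.10 in PT+HS, 9.14, 7.65 and 8.89 in PT, and 8.26, 6.71 and 7.0 in Ctrl. Of the 11 markers, 10 had a positive difference in PT+HS and 11 in PT, with medians of 1.29 and 1.07. The thresholds were passed by 7 and 5 of them, beside 3.28% and 3.67% of all genes. Only Mmp8, a collagenase of neutrophil granules, had a larger difference than Arg2 in either comparison. Ctrl replicate 1 had a higher marker level, 8.26, than PT replicate 2 with 7.65 and PT+HS replicate 2 with 8.16. Its Arg2 value was 4.86, against 6.41 and 7.48 in those animals. The 8 measured monocyte markers had a mean value of 7.42 to 7.98 in PT+HS, 6.54 to 7.58 in PT and 6.85 to 7.36 in Ctrl, and the 7 measured B-cell markers 5.86 to 6.35, 5.51 to 7.12 and 7.25 to 8.12. The part of the cell mixture in the Arg2 difference was not tested.

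**Figure D3:**
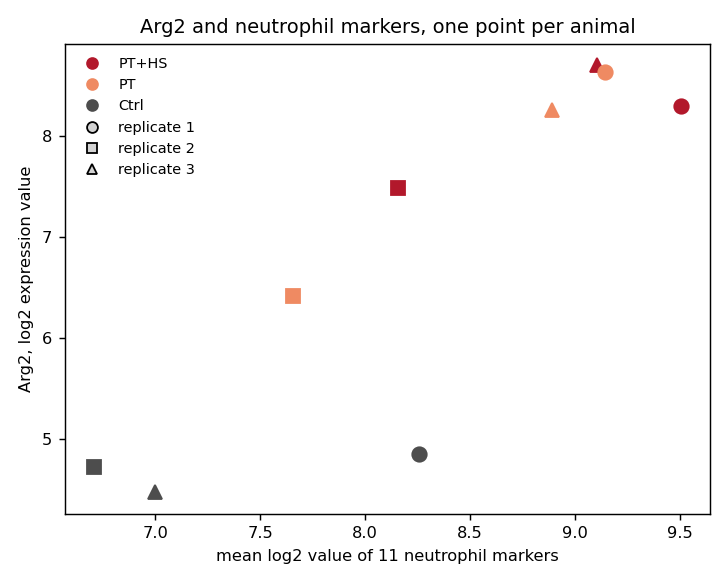
Log2 value of Arg2 (vertical axis) against the mean log2 value of 11 neutrophil markers (horizontal axis), 1 point per animal, coloured by group and shaped by replicate number. Ctrl replicate 1 lies at a marker level of 8.26 with an Arg2 value of 4.86, below PT replicate 2 and PT+HS replicate 2, which have lower marker levels.

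Around the 5 genes, 91 further genes were listed in 10 groups, 8 of arginine metabolism, 1 of regulators of arginase and Nos2 and 1 of other genes of suppressive myeloid cells, and 82 of them were measured by a probe set with a single symbol. limma was fitted over all genes, and in the listed genes the thresholds were passed by 10 of 82 in PT+HS against Ctrl (8 higher, 2 lower), which is 12.2% beside 3.28% of all genes (1.99% higher, 1.29% lower). In PT against Ctrl 6 passed (3 higher, 3 lower), 7.32% beside 3.67% (1.41% higher, 2.26% lower), and in PT+HS against PT 1 gene, higher, 1.22% beside 1.12% (0.726% higher, 0.396% lower). In the 8 groups of arginine metabolism, 3 of 56 measured genes (5.36%) passed in PT+HS against Ctrl and 2 (3.57%) in PT against Ctrl. In PT+HS against PT 0 of them did. The other 7, 4 and 1 passing genes were among the 26 regulators and myeloid genes, that is 26.9%, 15.4% and 3.85%. The lists were chosen with earlier results of these data known, so that a share above that of all genes is no test of them. By limma no listed gene reached an adjusted p under 0.05 (0.00550%, 0% and 0% of all genes did), nor by the methods' t-test with the same adjustment. An unadjusted p under 0.05 from limma was reached by 12, 8 and 2 listed genes, beside 4.86%, 5.82% and 2.87% of all genes. The median log2 difference of the 82 genes was 0.01, -0.03 and 0.01 in this order, beside -0.01, 0.00 and 0.00 over all genes. Without PT replicate 2, 1 listed gene passed the adjusted p in PT+HS against Ctrl. The count past the thresholds in PT+HS against Ctrl was 5 without PT+HS replicate 3 and 5 without Ctrl replicate 2. In PT against Ctrl it was 12 without PT replicate 3 and 3 without Ctrl replicate 2, and in PT+HS against PT it was 4 when PT replicate 1 or PT replicate 2 was left out, and 2 when PT replicate 3 or PT+HS replicate 1 was.

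Among the 6 transporters of arginine, Slc7a7, which exchanges basic for neutral amino acids at the cell surface, was past the thresholds in PT+HS against Ctrl. Its log2 values were 4.76, 4.60 and 4.63 in PT+HS, 4.44, 4.40 and 4.09 in PT, and 4.03, 3.63 and 3.60 in Ctrl. The groups were ordered without overlap, with differences from Ctrl of 0.91 in PT+HS (standard error 0.18, adjusted p = 0.281 from limma) and 0.56 in PT (adjusted p = 0.706). Between PT+HS and PT the difference was 0.35 (adjusted p = 1.0). It was the listed gene with the smallest adjusted p. It was past the thresholds in PT+HS against Ctrl in each of the 9 fits without 1 array. Its mean over the arrays was 4.24, just under the 4.29 of the median gene. Slc7a1, the main importer of basic amino acids in many cells, differed from Ctrl by -0.51 in PT+HS and -0.17 in PT and was not past them.

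Of the 7 genes of the urea cycle and of its mitochondrial carriers, none was past the thresholds in any comparison. The ornithine carrier Slc25a15 differed from Ctrl by -0.37 in PT+HS and -0.08 in PT, and its relative Slc25a2 by -0.19 and 0.28. Asl, which completes the synthesis of arginine after Ass1, differed by 0.18 and 0.12 (standard error 0.21).

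On the nitric oxide branch 1 of 11 measured genes was past the thresholds, and it concerned the cofactor of the synthases. Gchfr, a feedback regulator of Gch1, the first enzyme of tetrahydrobiopterin synthesis, had log2 values of 9.07, 8.79 and 8.64 in PT+HS, 8.29, 8.38 and 8.23 in PT, and 9.76, 9.56 and 8.83 in Ctrl. PT lay below both other groups. The log2 difference of PT from Ctrl was -1.09 (standard error 0.24, adjusted p = 0.394 from limma), and those of PT+HS were -0.55 from Ctrl and 0.53 from PT, with adjusted p-values of 0.999 and 1.0. Gch1 itself differed from Ctrl by -0.19 in PT+HS and -0.14 in PT, and the neuronal and endothelial synthases Nos1 and Nos3 by 0.07 and -0.14 for PT+HS, and for PT by -0.24 and 0.12, all below their standard errors.

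Downstream of ornithine no measured gene was past the thresholds. This held for the 4 measured genes that turn ornithine into proline and glutamate, among them Oat with 0.08 in PT+HS and -0.19 in PT from Ctrl, and Prodh with -0.12 and 0.09. It held for the 6 measured genes of polyamine synthesis and its control. Oaz2, an antizyme that targets Odc1 for degradation, differed by 0.01 and -0.18, and Azin2, which counters the antizymes, by -0.04 and 0.15. It held as well for the 7 genes of polyamine breakdown and use, where Eif5a, the protein that carries hypusine made from spermidine, differed by -0.22 and -0.31 and Dohh, which completes hypusine, by -0.37 and -0.37. The polyamine genes Oaz1, Azin1, Smox and Eif5a had mean log2 values of 10.19 to 13.10 over the arrays and were strongly measured. In creatine synthesis, which also uses arginine, 1 of 4 genes was past the thresholds. Gatm, the enzyme that transfers the amidino group of arginine, read 4.18, 4.19 and 3.37 in PT+HS, 3.68, 3.97 and 3.18 in PT, and 3.21, 3.05 and 3.16 in Ctrl, a difference of 0.78 in PT+HS (standard error 0.27, adjusted p = 0.814 from limma). It was not past the thresholds without PT+HS replicate 1 or PT+HS replicate 2. Gatm was weakly measured, with a mean of 3.55 over the arrays, under the 4.29 of the median gene.

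Among the 11 enzymes that modify arginine residues of proteins, 1 was lower past the thresholds in PT+HS and another in PT. The arginine methyltransferase Prmt5 differed from Ctrl by -0.80 in PT+HS and -0.60 in PT (standard error 0.32), and Prmt2 by -0.55 and -0.63 (standard error 0.18). Past the thresholds were Prmt5 in PT+HS (adjusted p = 0.943 from limma) and Prmt2 in PT (adjusted p = 0.594). Prmt5 was not past them without PT+HS replicate 1, PT+HS replicate 3 or Ctrl replicate 3, and Prmt2 not without PT replicate 1 or Ctrl replicate 2. Padi4, which converts arginine residues to citrulline in neutrophil chromatin, differed by 0.19 and 0.20 (standard error 0.29).

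Among regulators of arginase and Nos2, the thresholds were passed by 5 of 15 measured in PT+HS against Ctrl (4 higher, 1 lower). In PT against Ctrl 2 of 15 passed (1 higher, 1 lower), and in PT+HS against PT 1 of 15. The shares of all genes were 3.28%, 3.67% and 1.12%, and this list was chosen with earlier results of these data known. Cebpb, a transcription factor known to drive Arg1 in macrophages, had log2 values of 9.48, 9.15 and 9.67 in PT+HS, 9.81, 8.41 and 8.57 in PT, and 8.58, 8.16 and 8.07 in Ctrl. PT+HS lay above Ctrl without overlap, with a difference of 1.16 (standard error 0.34, adjusted p = 0.639 from limma), and PT overlapped with Ctrl, with a difference of 0.66. Hif1a, the oxygen-regulated factor that can induce both arginase and Nos2, was higher than in Ctrl, by 1.10 for PT+HS and 1.18 for PT (standard error 0.41, adjusted p = 0.897 and 0.741). PT+HS lay above Ctrl without overlap, while PT replicate 2, with 7.43, lay below Ctrl replicate 3, with 7.73. In PT+HS Hif1a was not past the thresholds without PT+HS replicate 3, Ctrl replicate 1 or Ctrl replicate 2. In PT it was not past them without PT replicate 1 or Ctrl replicate 2. Stat3, which transmits cytokine signals, and Cebpa, a factor of myeloid differentiation, were higher in PT+HS than in Ctrl by 0.88 and 0.82 (adjusted p = 0.988 and 0.940 from limma). Stat3 was not past the thresholds without PT+HS replicate 2, PT+HS replicate 3, Ctrl replicate 1 or Ctrl replicate 2, and Cebpa not without PT+HS replicate 1, PT+HS replicate 3, Ctrl replicate 2 or Ctrl replicate 3. Cebpa was also the gene past the thresholds between PT+HS and PT, with a difference of 1.16 (standard error 0.33, adjusted p = 1.0). Il10ra, a subunit of the interleukin-10 receptor, differed by -0.65 for PT+HS and -0.66 for PT, past the thresholds in both (adjusted p = 0.991 and 0.819 from limma). PT overlapped with Ctrl, as PT replicate 1, with 5.64, lay above Ctrl replicate 1, with 5.50. In PT+HS Il10ra was not past the thresholds without PT+HS replicate 1, PT+HS replicate 3, Ctrl replicate 2 or Ctrl replicate 3. In PT it was not past them without PT replicate 2, Ctrl replicate 2 or Ctrl replicate 3. Stat6 and Il4ra, which transmit the interleukin-4 signal to Arg1, differed from Ctrl by 0.13 and 0.34 for PT+HS, for PT by -0.11 and 0.16, and were not past the thresholds.

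Of 11 other genes of suppressive or alternatively activated myeloid cells, Retnla and Chil3 were past the thresholds in both injured groups against Ctrl. They stand beside 3.28% of all genes in PT+HS and 3.67% in PT, in a list chosen with earlier results known. Retnla, which encodes a secreted cysteine-rich protein that accompanies Arg1 in alternatively activated macrophages, had log2 values of 9.46, 8.55 and 9.10 in PT+HS, 9.24, 8.24 and 8.96 in PT, and 7.79, 7.64 and 7.27 in Ctrl. Injured and Ctrl animals did not overlap, and the differences were 1.47 in PT+HS and 1.25 in PT (standard error 0.31, adjusted p = 0.307 and 0.445 from limma). Chil3, a chitinase-like lectin of myeloid cells, differed by 2.09 in PT+HS and 1.68 in PT (standard error 0.72, adjusted p = 0.821 and 0.840), and its Ctrl replicate 1, with 9.16, lay within the injured range. In PT+HS Chil3 was not past the thresholds without PT+HS replicate 1, Ctrl replicate 2 or Ctrl replicate 3, and in PT not without PT+HS replicate 3, PT replicate 1, Ctrl replicate 2 or Ctrl replicate 3. Both genes have close relatives in the mouse genome, such as Retnlg, an abundant transcript of neutrophils, and Chil4, and signal from these cannot be told apart here. The mannose receptor Mrc1 and the cytokine Il10, also of such cells, differed from Ctrl by 0.19 and -0.08 for PT+HS, and for PT by 0.26 and 0.08, all below their standard errors.

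**Figure D4:**
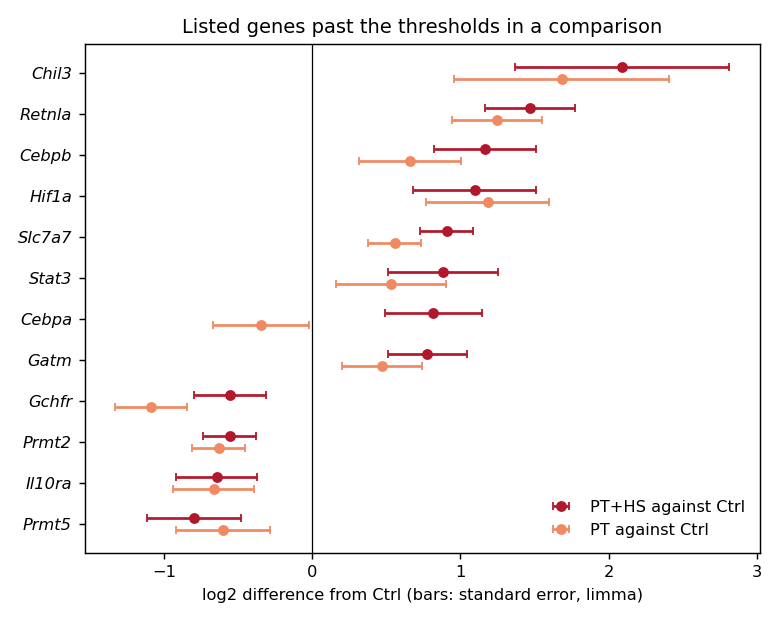
Log2 difference from Ctrl (horizontal axis) of the 12 listed genes past the thresholds in at least 1 of the 3 comparisons (vertical axis), with a point for PT+HS and one for PT, bars of 1 standard error (limma), both set against the same 3 Ctrl animals. Retnla and Slc7a7 lie above 0 in both injured groups, with 1.47 and 0.91 in PT+HS, and Gchfr lies at -1.09 in PT.

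The promoter windows of Retnla and Hif1a are shown because both genes were past the thresholds in both injured groups and their windows hold letters of factors in the list. They were chosen after their values were seen. Retnla (chr16:48842359-48842658, plus strand) holds the STAT6 letters from 145 and the C/EBP letters TTGCNNAA from 134 bases before the start. Hif1a (chr12:73907617-73907916, plus strand) holds the STAT6 letters from 235, an E-box from 135 and a separate ACGTG from 70 bases before the start. These matches are printed in capitals and are matches of letters only.
Retnla: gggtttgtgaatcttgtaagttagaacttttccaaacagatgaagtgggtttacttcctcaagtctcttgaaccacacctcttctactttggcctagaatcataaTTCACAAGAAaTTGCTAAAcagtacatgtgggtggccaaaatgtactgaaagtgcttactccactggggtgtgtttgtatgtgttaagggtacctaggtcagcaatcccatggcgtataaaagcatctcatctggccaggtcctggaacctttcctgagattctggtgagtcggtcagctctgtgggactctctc
Hif1a: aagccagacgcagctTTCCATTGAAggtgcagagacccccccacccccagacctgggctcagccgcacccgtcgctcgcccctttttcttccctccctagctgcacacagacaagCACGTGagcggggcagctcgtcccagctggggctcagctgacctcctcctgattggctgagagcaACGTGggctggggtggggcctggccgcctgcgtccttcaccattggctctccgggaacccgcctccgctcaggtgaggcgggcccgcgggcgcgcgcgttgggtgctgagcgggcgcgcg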

How the data were processed

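Blood RNA of 3 PT+HS, 3 PT and 3 Ctrl mice was measured on 1 array per animal. The deposited values are log2 expression from the authors' robust multiarray average, which corrects background, equalizes the distributions of the arrays and summarizes each probe set. Expression Console and BRB-ArrayTools were named for this, without versions. The probe set names are those of another array type than the methods name. Of 45101 probe sets, 34958 with exactly 1 symbol were used and 932 with several and 9211 with none were left out. Symbols were updated through the Entrez ID for 34754. The probe set with the highest mean stood for a gene. limma 3.58.1 in R 4.3.3 was fitted with 1 mean per group, two-sided and with Benjamini-Hochberg adjustment over 18194 genes, without a filter on low values, and was tested on simulated data. Named are the 5 members, the listed genes past the thresholds or, in a list with none, the 2 with the smallest p, and the 3 nearest patterns of members that span at least 1. Some further listed genes are given as context, chosen after their values were seen. The members and lists were chosen with earlier results of these data known. The alternatives were averaging all probe sets of a gene, each other probe set, equal medians, repeated quantile normalization, array weights, a replicate block, a filter at the median, fits to the 2 groups alone, a variance trend, the methods' t-test, a 2-fold threshold and leaving out each array.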

Additional observations from a re-analysis of the deposited data

Results flagged for a closer look

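Slc25a2, a mitochondrial carrier of ornithine, differed from Ctrl in opposite directions in the injured groups, with every PT+HS animal below and every PT animal above the Ctrl range. The opposite directions were noticed from the values of the 5 members and 82 listed genes and were not tested as such. Values without overlap, in either direction, were found in 13.2% of all genes in PT+HS against Ctrl. In PT against Ctrl the share was 9.44%. Its log2 values were 2.82, 2.70 and 2.61 in PT+HS, 3.18, 3.40 and 2.97 in PT and 2.87, 2.97 and 2.87 in Ctrl, where the highest Ctrl and the lowest PT value are the same after rounding. PT+HS differed from PT by -0.47, with an adjusted p of 1.0 from limma. The signal was weak, with a mean of 2.93 over the arrays. Groups of 3 animals are too small for a search for single outlying animals.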

How the results depend on the processing

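For 21 results, 330 values were recomputed under other settings. Of these, 309 moved by less than the spread between animals or, for counts, by no more than 1.5 times. The other 21 moved further. Leaving out an array of a group outside the comparison cannot change the difference of a member gene, nor can the replicate block. Such values are among the 309, so that this count overstates the stability. The Arg2 difference from Ctrl stayed above 0 in every setting and both injured groups. With the mean of its probe sets, Arg2 differed from Ctrl by 2.14 for PT+HS and 2.04 for PT, and with its other probe set by 0.81 and 0.999. With array weights, in which PT replicate 1 counted for 86.9% of the PT mean, it was -0.34 between PT+HS and PT. Another probe set of Odc1 gave the opposite sign, 0.083, for PT+HS against Ctrl, and 0.43 for PT+HS against PT. Listed genes past the thresholds in PT+HS against Ctrl numbered 6 by the methods' t-test, 4 with a 2-fold threshold and 5 to 11 without 1 array, and at an adjusted p 2 in a fit to these groups alone and 0 to 1 without 1 array. In PT against Ctrl they numbered 15 with array weights and 3 to 12 without 1 array, and 6 at an adjusted p with array weights. In PT+HS against PT they numbered 4 with array weights and 1 to 4 without 1 array. The cause of these changes was not tested.

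The labels do not say whether replicate numbers pair the animals. Over 9 pairs of same-numbered arrays the deviations from the group means correlated at -0.115 to 0.478, and 3 were over 0.1. With the replicate block 9, 7 and 1 listed genes were past the thresholds and 0 passed an adjusted p in each comparison. In this balanced layout the block cannot change a difference of group means. The Arg2 differences from Ctrl, 3.48 in PT+HS and 3.08 in PT, are therefore those of the main fit. Their standard error was 0.40 with the block and 0.52 without it. With 3 animals per group and no detection calls, differences from Ctrl of weakly measured genes such as Arg1, Nos2 and Ass1 were not resolved. Their values overlapped with Ctrl in both injured groups, and their standard errors were 0.19 to 0.27.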
